A study of Homo sapiens with 12 samples.

Results

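HEK293T cells that received siRNA s18074, 1 of 3 siRNAs against MED26, were compared with cells that received non-targeting control siRNA. The comparison used the 3 arrays of the s18074 group and the 3 arrays of the control group, out of 12 in the series. The remaining 6 arrays, 3 with s18075 and 3 with s18076, served to show where s18074 differed and entered the estimate of spread. All 19775 genes that could be read from a probe set naming 1 gene were compared, each through its probe set of highest mean over the 12 arrays. HEK293T cells derive from human embryonic kidney and express the large T antigen of SV40, and all groups share that background. Transfection was with 25 nM siRNA for 48 hours, and 300 ng of total RNA from each sample was labelled for an Affymetrix expression array. The labels name different non-targeting siRNAs (numbers 2, 3 and 4) over the control arrays and the protocol names 1, so the 3 controls may not share 1 reagent. Nothing says that replicates came from separate cultures, and the p-values therefore reflect variation among arrays that may be only technical. The number of arrays limits the precision of every value.

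MED26 belongs to Mediator, a large complex that carries signals from DNA-bound transcription factors to RNA polymerase II. It is known for recruiting elongation factors, among them the super elongation complex, and has been tied to the transcription of histone and small nuclear RNA genes. An siRNA can also act on transcripts other than its intended target that match it in part, which is why several siRNAs against 1 gene are commonly compared. The sequences of these siRNAs are not analysed here.

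Values are log2 intensity, and changes are differences of mean log2 intensity, s18074 minus control, given with limma's standard error. Genes were called higher or lower where the p-value, adjusted by Benjamini and Hochberg's method across the 19775 genes, was under 0.05. The arrays had median intensities of 72.3 to 73.8. Of the HEK293 line markers, VIM stood at 13.1 and INA at 10.5 in the controls (means, n = 3), with PAX2 lower at 6.54. The blood cell marker PTPRC was at 3.99 in the controls and 4.00 with s18074, while the 10 blood cell markers measured had a median of 6.08 in the controls. The replicate 1 arrays of the 4 groups stood apart from the rest: their deviations from the group means correlated with each other at 0.326 to 0.439. The main counts are also given for replicates 2 and 3 alone, and genes named here whose call was lost in that fit are pointed out.

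MED26 was lower with s18074 on all 3 arrays. The control arrays read 9.84, 9.87 and 9.84 and the s18074 arrays 8.79, 8.69 and 8.76 on the gene's brightest probe set. The groups did not overlap, and the difference of -1.10 ± 0.06 (SE, limma adjusted p = 1.2e-06) left 46.6% of the control signal. The exact two-sided permutation test of 3 arrays against 3 gave p = 0.1, the smallest its 20 arrangements allow. In bulk RNA, fewer cells holding a transcript and less of it per cell cannot be told apart. The other MED26 probe sets, both dim, differed by 0.33 and -0.27 and were not called. The direct difference from s18075 was -0.54 on the log2 scale (95% interval -0.68 to -0.40, adjusted p = 0.000256). Against s18076 the difference was -0.02 (95% interval -0.16 to 0.12, adjusted p = 0.925).

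Across the 19775 genes, 1319 were called higher with s18074 (6.67%) and 1493 lower (7.55%), while 16963 were not called. The changes were mostly small. Genes called higher had a median difference of 0.33 in size, 223 of them reached 0.5 and 11 reached 1. Genes called lower had a median of 0.31 in size, 187 reached 0.5 and 8 reached 1. The median over all genes was -0.01, and 90% of genes lay between about -0.29 and 0.29. In 1311 of the 1319 higher genes and 1486 of the 1493 lower genes, the 3 s18074 arrays did not overlap the 3 controls. The calls came from these same arrays, so this was nearly fixed in advance and adds no support. On replicates 2 and 3 alone, with 2 arrays a group, 1083 genes were called higher and 1029 lower. A further probe set of the same gene was called in the same direction for 281 of 920 higher genes and 239 of 923 lower genes that had any, and in the opposite direction for 30 and 36.

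**Figure D1:**
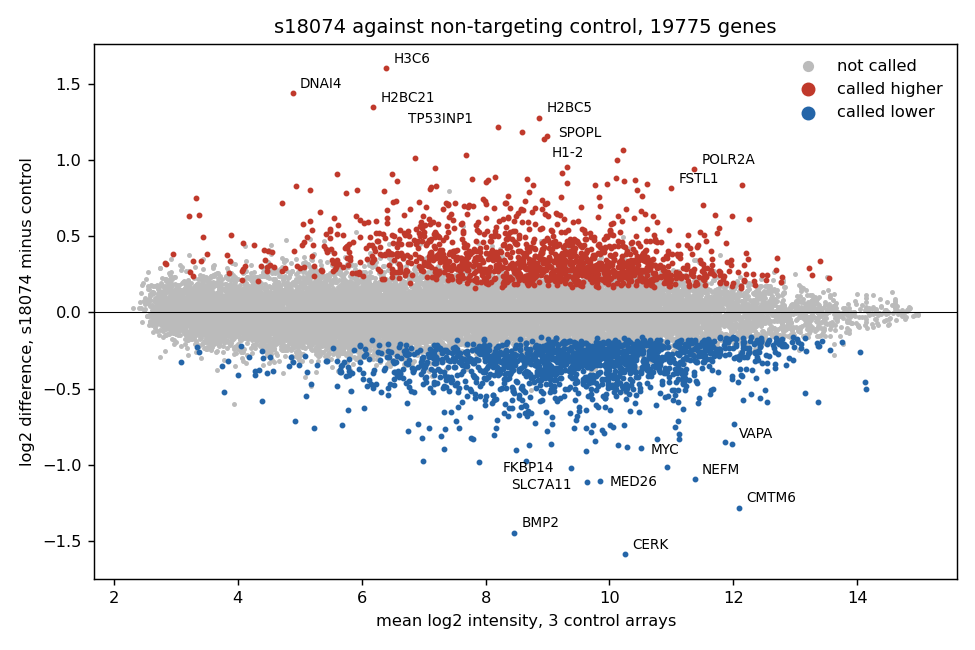
Mean log2 intensity of each gene in the 3 control arrays (x) against its log2 difference, s18074 minus control (y), with called genes coloured by direction and named genes labelled. Most of the 19775 points lie near 0, and CERK at -1.59 and H3C6 at 1.60 lie farthest out.

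Calls were not spread evenly over expression level. Genes were divided into 5 equal groups by their level in the s18075 and s18076 arrays. These arrays are on neither side of the difference, but they entered the estimate of spread and the choice of probe set. In the lowest group of 3955 genes, at log2 levels of 2.4 to 5.1, 0.860% were called higher and 0.784% lower. In the group at levels of 8.5 to 10.2, 12.6% were called higher and 14.7% lower. In the top group the shares were 9.08% and 10.7%. A gene that was not called in the lowest groups may have had a signal too dim to show a difference of this size.

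Histone genes led the rises. H3C6, a gene of the core histone H3, read 6.35, 6.52 and 6.32 in the controls and 7.82, 8.08 and 8.09 with s18074. That is a difference of 1.60 ± 0.10 (adjusted p = 1.26e-06), the largest rise of any gene called higher. H2BC21, a gene of histone H2B, read 6.20, 6.22 and 6.15 against 7.57, 7.47 and 7.56 and rose by 1.35 ± 0.07. H2BC5, another H2B gene at a higher level, rose by 1.28 ± 0.08, from 8.74, 8.88 and 8.99 to 10.13, 10.15 and 10.16. H1-2, a linker histone, rose by 1.14 ± 0.07, H2BC12L by 1.06 ± 0.06, H2BC9 by 1.03 ± 0.05 and H2AC6 by 0.94 ± 0.06. In each of these genes the lowest s18074 array lay above the highest control array, which a call on these same arrays makes nearly certain. Of the 15 largest rises, 7 were histone genes.

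Of the 66 replication-dependent histone genes listed, 41 were measured, 15 were called higher and 0 lower, with a median difference of 0.14. Many were dim: the median control level over the list was 5.77 against 7.45 over all genes. Histone genes are near-identical copies in clusters, so a probe set named for 1 gene may read others, and how the rise is shared among copies is uncertain. These values are array signal, and whether transcription of the histone genes changed was not tested. A further H3C6 probe set differed by 0.30 and was not called. The rises stood at 1.38 (H3C6), 1.48 (H2BC21) and 1.61 (H2BC5) with s18075, and at 1.57, 1.23 and 1.32 with s18076, against the same control arrays. H2BC5 differed between s18074 and s18075 by -0.33 (adjusted p = 0.035).

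The promoters of the leading histone genes are shown because these genes rose together. Each line gives the 120 bases before the transcription start in RefSeq on GRCh38.p14, and capitals mark matches to the motifs searched. These were TATAAA (the TATA box), then CCAAT (the CCAAT box), then GGGCGG (a GC box) and finally CACGTG (an E-box), each on both strands. H3C6 lies on chr6:26224058-26224177 on the plus strand, H2BC21 on chr1:149886683-149886802 on the minus strand, H2BC5 on chr6:26158001-26158120 on the plus strand and H1-2 on chr6:26056471-26056590 on the minus strand.
H3C6: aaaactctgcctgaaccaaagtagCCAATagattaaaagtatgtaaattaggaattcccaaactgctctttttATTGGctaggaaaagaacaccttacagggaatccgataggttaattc
H2BC21: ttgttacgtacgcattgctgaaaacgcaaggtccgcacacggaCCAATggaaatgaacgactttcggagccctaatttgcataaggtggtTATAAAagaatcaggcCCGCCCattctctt
H2BC5: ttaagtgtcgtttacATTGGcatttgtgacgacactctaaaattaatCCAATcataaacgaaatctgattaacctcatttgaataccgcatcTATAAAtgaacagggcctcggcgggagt
H1-2: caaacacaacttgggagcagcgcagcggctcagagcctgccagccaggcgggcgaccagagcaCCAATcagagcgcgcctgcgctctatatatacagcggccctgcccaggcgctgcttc
The TATA box match began 30 bases before the start in H2BC21 and 28 bases before it in H2BC5. Over 300-base windows around the start, all 15 histone genes called higher had a promoter in the table, and 13 of these held TATAAA and 15 held CCAAT. Among the 39 measured histone genes with a promoter the shares were 69.2% and 87.2%. Over the 15384 genes tested that had a promoter, the shares were 8.76% and 36.1%. GGGCGG was found in 1 of the 15, against 20.5% of the 39 measured histone genes and 58.9% of the 15384 genes. These matches describe the letters of the window and say nothing of which factor was bound.

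The other large rises were of genes with varied roles. TP53INP1, a p53 target with a role in autophagy, read 8.26, 8.23 and 8.12 in the controls and 9.39, 9.34 and 9.53 with s18074, a rise of 1.22 ± 0.07 (adjusted p = 9.38e-07), and its 2 further dim probe sets were not called. BASP1, a membrane-associated protein abundant in neurons, rose by 1.18 ± 0.08. SPOPL, an adaptor of cullin-3 ubiquitin ligases, rose by 1.16 ± 0.06, from 8.98, 9.02 and 8.99 to 10.12, 10.20 and 10.15. SPOPL was higher with s18074 than with s18075 by 0.82 (adjusted p = 3.52e-06), and its changes from control were 0.34 with s18075 and 1.25 with s18076. SLC40A1, the iron exporter ferroportin, rose by 1.01 ± 0.08, and NEK7, a kinase of the NIMA family, by 1.00 ± 0.08. DNAI4, an axonemal dynein chain, rose by 1.44 ± 0.18 but was dim, at 4.57, 4.90 and 5.19 in the controls. CREBZF, a leucine zipper transcription factor, rose by 0.96 ± 0.09 on its brightest probe set, while another of its probe sets was called lower at -0.57. Averaged over all its probe sets, CREBZF was not called.

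Among the largest falls, several were genes that both other siRNAs also lowered. BMP2, a secreted bone morphogenetic protein, read 8.38, 8.55 and 8.48 in the controls and 6.86, 7.08 and 7.13 with s18074, a difference of -1.44 ± 0.09 (adjusted p = 1.26e-06). It stood at -1.55 with s18075 and -0.99 with s18076. SLC7A11, the cystine importer of the amino acid response, fell from 9.67, 9.59 and 9.62 to 8.41, 8.52 and 8.64, a difference of -1.11 ± 0.08. Its change was smaller than with s18075, where it was -1.57 (adjusted p of the difference = 0.0027). The neurofilament gene NEFM changed by -1.09 ± 0.06 and the GABA-B receptor subunit GABBR2 by -0.98 ± 0.07. TET1, a 5-methylcytosine dioxygenase, changed by -0.91 ± 0.05. MYC read 10.81, 10.53 and 10.20 in the controls and 9.68, 9.57 and 9.63 with s18074, a difference of -0.89 ± 0.13 (adjusted p = 0.000708). The control arrays of MYC were spread widely, and the lowest of them still lay above all 3 s18074 arrays.

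Lower values were found for SDK2, a cell adhesion protein, at -0.98 ± 0.12 and for RSKR, a kinase-like gene, at -0.97 ± 0.11. SDK2 was not called as the mean of its probe sets (adjusted p = 0.0585). TMEM145 stood at -0.90 ± 0.12, and NOG, an extracellular antagonist of bone morphogenetic proteins, at -0.82 ± 0.10. GNG4, a G protein gamma subunit, was at -0.90 ± 0.24 (adjusted p = 0.0237), and leaving out control replicate 1 reduced it to -0.63 (adjusted p = 0.0811). Its call was also lost without control replicate 2, s18074 replicate 2 or s18074 replicate 3. FKBP14, CMTM6, FAM171A1 and CERK were the 4 of the 15 largest falls that s18074 also lowered against each other siRNA, and are described further on.

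**Figure D2:**
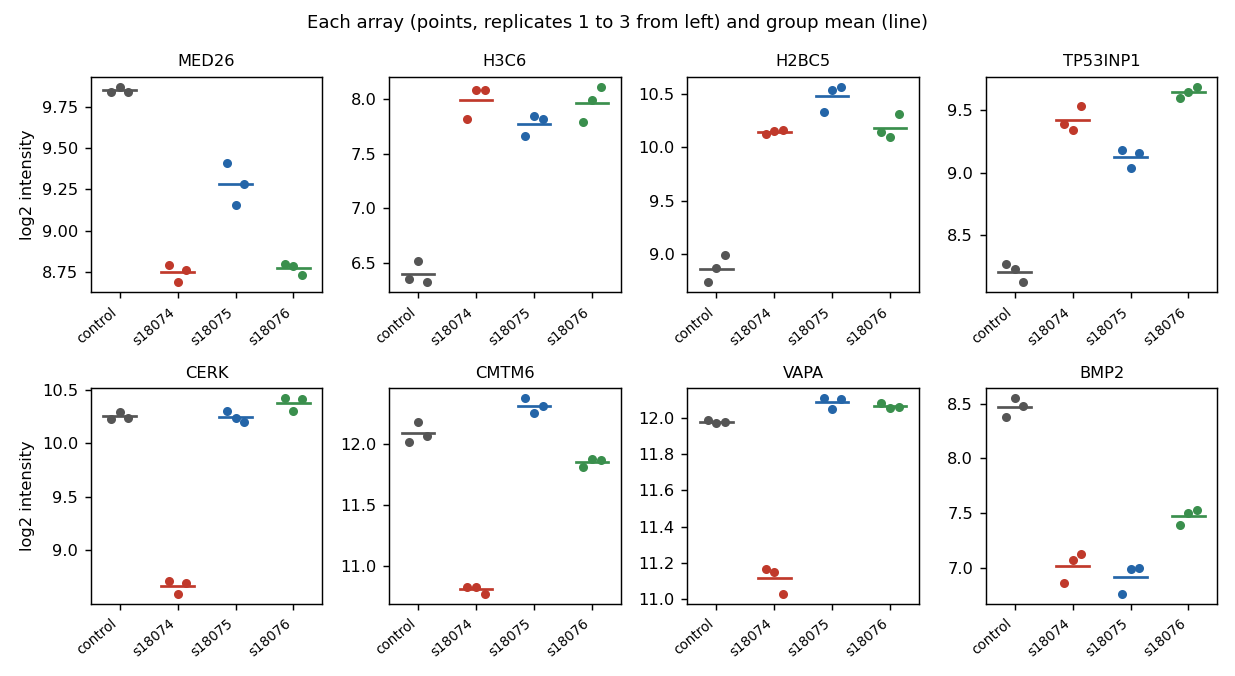
Log2 intensity of every array, by group, for selected genes, with a line at each group's mean of 3 arrays. The s18074 arrays lie apart from the control arrays in each gene called higher or lower, which a call on these arrays makes nearly certain. CERK is low with s18074 and not with either other siRNA. CMTM6 is lowest with s18074, and with s18076 it lies at -0.24 from control.

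The genes of Mediator and of the transcription machinery moved in both directions. This and the following lists are described by counts, beside 6.67% higher and 7.55% lower over all genes. Most lists hold brighter genes than the median gene, at 7.45 in the controls (Mediator genes had a median of 9.89 and elongation factors of 9.97), and calls were more frequent at such levels. Of 31 measured MED26 and other Mediator genes, 4 rose and 4 fell, the targeted MED26 among the falls. Their median was 0.01 against -0.01 over all genes. MED28, a head module subunit, rose by 0.64 ± 0.06 and MED15, of the tail module, by 0.35 ± 0.08. MED11, another head subunit, fell from 9.79, 9.81 and 10.01 to 9.08, 9.13 and 9.09, a difference of -0.77 ± 0.06. It differed from s18075 by -0.29 (adjusted p = 0.0156) and from s18076 by -0.26 (adjusted p = 0.0348), and was called against control with those siRNAs too, at -0.48 and -0.52.

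Of 40 elongation factor genes, 8 rose and 1 fell, with a median of 0.07. HEXIM1, an inhibitor of the kinase P-TEFb within the 7SK particle, averaged 10.23 ± 0.14 in the controls and 11.10 ± 0.08 with s18074 (SD, n = 3). That is a rise of 0.86 ± 0.08. MEPCE, which caps the 7SK RNA, rose by 0.29 ± 0.06 and AFF4, the scaffold of the super elongation complex, by 0.33 ± 0.06. TCEA2, a TFIIS gene, fell by 0.66 ± 0.08. AFF1, another scaffold of that complex, was called higher at 0.18 ± 0.05. Of 42 initiation factor and RNA polymerase II genes, 6 rose and 1 fell, with a median of 0.03. POLR2A, the largest subunit of the polymerase, rose by 0.94 ± 0.06, from 11.35, 11.34 and 11.41 to 12.33, 12.26 and 12.33. TAF8, a TFIID subunit, rose by 0.65 ± 0.07, and GTF2B, which is TFIIB, by 0.36 ± 0.05.

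Growth and stress programmes showed a mixed picture by list. Of 27 p53 target genes, 7 rose and 0 fell (median 0.16). Beside TP53INP1 these included TNFRSF10B, a death receptor, at 0.53 ± 0.05, CDKN1A, the cell cycle inhibitor p21, at 0.49 ± 0.06 and SESN1 at 0.48 ± 0.07. CDKN1A rose less with s18074 than with s18075 (difference -0.45, adjusted p = 0.000923). SESN1 was higher than with s18076 by 0.45 (adjusted p = 0.0013). All 8 snoRNA host genes measured, of 18 listed, fell, with a median of -0.32. SNHG4 was at -0.64 ± 0.10, TAF1D at -0.39 ± 0.07, EPB41L4A-AS1 at -0.36 ± 0.05 and ZFAS1 at -0.33 ± 0.06. Of 39 measured genes of MYC and ribosome biogenesis, 12 fell and 0 rose, with a median of -0.12. Beside MYC, the nucleolar proteins IMP4, NOP14 and NOP16 were at -0.38 ± 0.08, -0.36 ± 0.06 and -0.29 ± 0.06. NOP16 lost its call as the mean of its probe sets (-0.14, adjusted p = 0.132).

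Amino acid and unfolded protein stress genes fell in 9 of 38 cases and rose in 4, with a median of -0.06. SLC7A5, a large neutral amino acid transporter, was at -0.51 ± 0.07 and ASNS, asparagine synthetase, at -0.51 ± 0.08, while VLDLR rose by 0.52 ± 0.09. Of 18 aminoacyl-tRNA synthetase and associated genes, 4 fell and 0 rose (median -0.10). The synthetase genes VARS1, YARS1 and GARS1 were at -0.30 ± 0.08, -0.22 ± 0.06 and -0.17 ± 0.05, and the associated AIMP1 at -0.30 ± 0.07. None of these 4 calls held throughout: VARS1, YARS1 and GARS1 were not called on replicates 2 and 3 alone (adjusted p = 0.0760, 0.0684 and 0.0601), and AIMP1 not without s18074 replicate 2 or 3. GARS1 also lost its call in the fit of the 6 compared arrays (adjusted p = 0.129) and with any 1 of those arrays left out. Among 42 immediate-early genes 10 rose and 2 fell (median 0.11). The AP-1 member FOSL1 rose by 0.39 ± 0.12 and IER3 by 0.39 ± 0.05, and TRIB1 and SPRY1, both feedback regulators of signalling, were at -0.51 ± 0.05 and -0.43 ± 0.07. FOSL1 was at 0.24 on replicates 2 and 3 alone (adjusted p = 0.228) and at 0.27 without control replicate 1 (adjusted p = 0.138). FOSL1 was also not called in the fit of the 6 compared arrays (adjusted p = 0.0819). Its call was lost too without control replicate 2, s18074 replicate 1 or s18074 replicate 2. TRIB1 lost its call as the mean of its probe sets (-0.20, adjusted p = 0.116). Interferon-stimulated genes rose in 6 of 39 cases and fell in 0 (median 0.02), with IFITM1 at 0.59 ± 0.06, IRF9 at 0.35 ± 0.07, IFI6 at 0.30 ± 0.06 and SAMD9 at 0.57 ± 0.15. SAMD9 was not called when either s18074 replicate 2 or 3 was left out (adjusted p = 0.0900 and 0.0946). Its call was also lost without control replicate 1, 2 or 3 (adjusted p = 0.0583, 0.0588 and 0.0578).

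Sphingolipid, lysosomal and trafficking genes had rises of up to 0.84, while genes of cholesterol synthesis were divided. Of 37 sphingolipid genes, 6 rose and 1 fell, which was CERK (median 0.06). ACER2, a Golgi ceramidase, rose by 0.61 ± 0.07, SMPD1, the acid sphingomyelinase, by 0.59 ± 0.07, and SPTLC1, a subunit of serine palmitoyltransferase, by 0.47 ± 0.06. Of 46 lysosome and autophagy genes, 9 rose and 1 fell (median 0.15), with LAMP2, a lysosomal membrane protein, at 0.54 ± 0.07, ULK1, the kinase that starts autophagy, at 0.50 ± 0.09, ATG2A at 0.50 ± 0.07 and NEU1 at 0.47 ± 0.13. NEU1 was not called in the fit of the 6 compared arrays (adjusted p = 0.0600), nor without control replicate 2, control replicate 3, s18074 replicate 1 or s18074 replicate 3. Of 54 genes of trafficking coats and tethers, 6 rose and 2 fell (median 0.05). SAR1B, a GTPase of the COPII coat, rose by 0.84 ± 0.06 and the coat's cargo receptors SEC24A and SEC24B by 0.55 ± 0.09 and 0.40 ± 0.07. Among 25 genes of cholesterol synthesis, 3 rose and 4 fell (median -0.06). INSIG1, which holds the SREBP complex in the endoplasmic reticulum, fell from 11.63, 11.40 and 11.27 to 10.97, 10.81 and 10.74, a difference of -0.59 ± 0.09, while it was at -1.54 with s18075 (adjusted p of the difference = 3.91e-05). STARD4, a sterol carrier, rose by 0.72 ± 0.09. LSS, lanosterol synthase, was at -0.51 ± 0.05, but as the mean of its probe sets it was at -0.10 and not called (adjusted p = 0.379).

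In signalling lists the direction was divided. TGF-beta and BMP genes rose in 9 and fell in 5 of 42 cases (median 0.07), with SMAD2 at 0.45 ± 0.07 and the receptor BMPR2 at 0.44 ± 0.10 against BMP2 and NOG among the falls. As the mean of its probe sets BMPR2 was at 0.13 and not called (adjusted p = 0.274). YAP and TEAD genes rose in 6 and fell in 5 of 32 (median 0.05): LATS2, a Hippo kinase, was at 0.40 ± 0.07, and AMOT and FJX1 were at -0.53 ± 0.06 and -0.38 ± 0.07. LATS2 was not called as the mean of its probe sets (0.15, adjusted p = 0.204), and FJX1 not on replicates 2 and 3 alone (adjusted p = 0.0550). Of 40 WNT genes 3 rose and 2 fell (median 0.00), with DKK3 at 0.48 ± 0.07 and DVL1 at -0.25 ± 0.06. DKK3 was not called as the mean of its probe sets (0.14, adjusted p = 0.177), and DVL1 not on replicates 2 and 3 alone (adjusted p = 0.0701). The WNT receptor FZD6 was at 0.44 ± 0.12 and lost its call in a fit of the 6 compared arrays alone (adjusted p = 0.0716). Its call was also lost without control replicate 2 or 3, or without s18074 replicate 1, 2 or 3. Of 32 NOTCH genes, 1 rose and 4 fell (median -0.02): HES1, a NOTCH target, rose by 0.51 ± 0.07, while PSEN2, NRARP and HEY1 were at -0.34 ± 0.05, -0.34 ± 0.06 and -0.22 ± 0.05. HEY1 was not called on replicates 2 and 3 alone (adjusted p = 0.0598).

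The microRNA machinery had 6 of 12 genes higher and 2 lower (median 0.19). TNRC6A, a GW182 protein that binds Argonaute and drives microRNA silencing, read 10.04, 10.15 and 10.13 in the controls and between 10.95 and 11.01 with s18074, a rise of 0.88 ± 0.05. The related TNRC6C and TNRC6B rose by 0.49 ± 0.09 and 0.34 ± 0.08, and AGO4 by 0.39 ± 0.07. Of these, TNRC6C and AGO4 were not called as means of their probe sets (0.06 and 0.18, adjusted p = 0.552 and 0.0864), and TNRC6B not without s18074 replicate 3. TNRC6A was higher than with s18075 by 0.29 (adjusted p = 0.00655). Of 44 neuronal genes that the repressor REST holds down, 10 fell and 3 rose (median -0.05). NEFL, partner of NEFM in neurofilaments, fell from 11.21, 11.12 and 11.01 to 10.28, 10.32 and 10.36, a difference of -0.80 ± 0.06. Its further probe sets were at -0.06 and 0.04 and not called, so the fall rests on 1 of 3. CPLX1, a synaptic protein, was at -0.71 ± 0.10. NEFM and NEFL are also the 2 of 9 HEK293 line markers that fell.

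Glycolysis and hypoxia genes rose in 6 and fell in 4 of 35 cases (median 0.03). HIF1A, the oxygen-regulated transcription factor, rose by 0.61 ± 0.06 and ADM by 0.54 ± 0.06, while VEGFA was at -0.68 ± 0.06. HK2, a hexokinase, fell from 11.06, 11.03 and 11.09 to 10.27, 10.38 and 10.27, a difference of -0.75 ± 0.05. On that probe set it was lower than with each other siRNA, while its further probe sets, at -0.54 and -0.40, differed from s18075 by -0.03 and 0.07 and were not called there. Adhesion and matrix genes rose in 12 of 50 cases and fell in 1 (median 0.09), with NID1, a basement membrane protein, at 0.64 ± 0.08, COL5A1 at 0.41 ± 0.11 and ALCAM at 0.37 ± 0.06. COL5A1 lost its call without control replicate 2 or 3 or s18074 replicate 1 or 2. Cell cycle lists were nearly balanced. Of 42 S phase genes 2 rose and 4 fell (median -0.01), with CCNE2 at 0.36 ± 0.07 and CDC45 at -0.33 ± 0.08, the latter not called without control replicate 1 or s18074 replicate 2. Of 42 genes of G2 and M phase 5 rose and 4 fell (median -0.00), with ANLN at 0.44 ± 0.07 and CCNB1, cyclin B1, at -0.33 ± 0.07. Of 49 oxidative phosphorylation genes 2 rose and 2 fell (median 0.01). The shares of the S phase and oxidative phosphorylation lists, at 4.76% and 4.08% higher and 9.52% and 4.08% lower, lay near those over all genes.

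Markers of other cell types were read next. Among 16 kidney epithelium markers, 1 fell (EPCAM, at -0.40 ± 0.09) and 0 rose, and the summed intensity was 1847 to 1976 in the controls and 1882 to 1911 with s18074. Among 14 fibroblast markers, FBLN1 was higher at 0.33 ± 0.08 and COL3A1 and LUM lower at -0.59 ± 0.13 and -0.55 ± 0.07, which is 7.14% higher and 14.3% lower against 6.67% and 7.55% over all genes. Their sums were 1591 to 1634 in the controls and 1621 to 1696 with s18074. FBLN1 was not called as the mean of its probe sets (adjusted p = 0.272), nor without control replicate 3 or s18074 replicate 3. Of 10 blood cell markers 0 were called by limma and 1 had an unadjusted p under 0.05. Their sums were 594 to 654 and 576 to 652. Of 10 carcinoma line markers 0 were called, 2 had an unadjusted p under 0.05, and the sums were 548 to 570 and 513 to 559. The HEK293 line markers summed to 17404 to 19814 in the controls and 15780 to 16587 with s18074. The part of these differences in other results was not tested.

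Where s18074 differed from the other siRNAs was taken from direct comparisons, all of which share the s18074 arrays. Against s18075, 1259 genes were called (6.37%), of which 702 were higher with s18074 and 557 lower. Against s18076, 1010 genes were called (5.11%), with 449 higher and 561 lower. Genes called against control, against s18075 and against s18076 in 1 direction numbered 26 higher and 110 lower. In all 136 of them the s18074 arrays did not overlap the control arrays, which a call on these same arrays makes nearly certain. The 110 lower genes had a median of -0.46 with s18074, -0.01 with s18075 and 0.01 with s18076, each against the same control arrays. Of them, 48 reached 0.5 in size and 4 reached 1, and 62 were not called with either other siRNA. Another 17 were also called lower with 1 other siRNA and 6 with both, so they fell further with s18074 rather than with it alone. The 26 higher genes had a median of 0.37 with s18074, 0.01 with s18075 and -0.05 with s18076. Of them, 7 were not called with either other siRNA, 8 were also called higher with 1 of them and 1 with both. Against control, at least 1 other siRNA was called the opposite way for 13 of the 26 and for 26 of the 110. Such genes were set apart in part by a change with another siRNA.

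These counts depended on the arrays used. Without s18074 replicate 1, 2 or 3 the 110 lower genes became 70, 78 and 77, and on replicates 2 and 3 alone they became 64. Each such fit also has fewer arrays. Leaving out s18074 replicate 2 or s18074 replicate 3 reduced the 26 higher genes to 11, s18075 replicate 1 to 17, s18076 replicate 2 to 15 and s18076 replicate 3 to 16. Of the lower genes, 109 of the 110 were in the upper 3 of the 5 level groups. Most of the 1493 genes called lower than control were there too, with 360, 580 and 422 in those groups. The levels came from the s18075 and s18076 arrays, which also entered the choice of the 110. A further probe set was called lower than control for 28 of the 75 that had any, lower than control and than each other siRNA for 14, and higher than control for 6. Among the 22 of the 26 higher genes with a further probe set, 3 had one called higher in all 3 comparisons.

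CERK showed the largest fall with s18074 of any gene called lower. CERK is ceramide kinase, which makes ceramide 1-phosphate. The control arrays read 10.23, 10.29 and 10.24 and the s18074 arrays 8.71, 8.59 and 8.69 on its only probe set compared, while s18075 gave 10.31, 10.24 and 10.20 and s18076 gave 10.42, 10.31 and 10.41. The 3 s18074 arrays were alone in being low. The difference from control was -1.59 ± 0.06 (adjusted p = 3.65e-08), which left 33.3% of the control signal. It differed from s18075 by -1.58 (95% interval -1.71 to -1.46) and from s18076 by -1.72 (95% interval -1.84 to -1.59). MED26 itself kept 46.6%.

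CMTM6, a membrane protein that protects the immune checkpoint ligand PD-L1 from degradation, read 12.02, 12.18 and 12.07 in the controls and 10.83, 10.83 and 10.77 with s18074. With s18075 it read 12.38, 12.26 and 12.31 and with s18076 11.81, 11.88 and 11.87. The difference from control of -1.28 ± 0.06 (adjusted p = 3.11e-07) left 41.2% of the signal, and a further CMTM6 probe set gave -1.32, with -1.50 and -1.01 from s18075 and s18076. CMTM6 differed from s18075 by -1.51 and from s18076 by -1.04. With the others it was called against control in opposite directions, at 0.23 with s18075 and -0.24 with s18076. Of 18 genes of the CMTM family and PD-L1 turnover, 4 fell, CMTM6 itself among them, and 1 rose (median -0.11). Among the falls CKLF was at -0.34 ± 0.07 and CMTM8 at -0.28 ± 0.05, and CMTM1 was higher at 0.26 ± 0.07. CMTM1 was not called in the fit of the 6 compared arrays (adjusted p = 0.0726) or as the mean of its probe sets (0.18, adjusted p = 0.131). Its call was also lost without control replicate 1 or 2, or without s18074 replicate 2 or 3. CD274, the gene of PD-L1, was dim, at 5.71, 5.55 and 5.72 in the controls and 5.77, 5.66 and 5.76 with s18074. Its groups overlapped, and the 95% interval of its difference ran from -0.13 to 0.27 (adjusted p = 0.697).

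VAPA, an endoplasmic reticulum protein that tethers other membranes, read 11.99, 11.97 and 11.98 in the controls and 11.17, 11.15 and 11.03 with s18074, a difference of -0.86 ± 0.05. Both other siRNAs left it at 12.05 to 12.11. Further VAPA probe sets were called lower than control at -1.02, -0.57 and -0.34. The first was also lower than with each other siRNA, by -0.59 and -0.62, though it stood at -0.43 and -0.40 with them against control. The other 2 differed from s18075 by -0.02 and 0.04 and were not called against either siRNA. TRMT11, a tRNA methyltransferase subunit, was at -0.83 ± 0.07 with s18074, -0.01 with s18075 and 0.00 with s18076. TEAD2, a DNA-binding partner of YAP, read 8.75, 8.76 and 8.59 in the controls and 7.83, 7.77 and 7.90 with s18074, a difference of -0.87 ± 0.07, and stood at -0.08 and -0.06 with the others. None of the 3 further TEAD2 probe sets was called, and as the mean of its probe sets TEAD2 was at -0.51 and not called (adjusted p = 0.0613). CTNNB1, which is beta-catenin, read 13.30, 13.18 and 13.01 against 12.76, 12.57 and 12.56, a difference of -0.53 ± 0.08. It too was not called as a mean of probe sets (adjusted p = 0.154).

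Others of the 12 most separated falls belonged to varied processes. UQCC6, an assembly factor of respiratory complex III, was at -0.78 ± 0.06, and the actin regulator SWAP70 at -0.74 ± 0.06, though 2 further SWAP70 probe sets were at -0.07 and -0.04 and not called. MPPED2 was at -0.83 ± 0.12, FKBP14, a prolyl isomerase of the endoplasmic reticulum, at -1.02 ± 0.16, LIN52, of the DREAM complex, at -0.68 ± 0.08, and FAM171A1 at -1.01 ± 0.05. FAM171A1 was also called lower with s18075, at -0.35, and with s18076, at -0.24. RAB8B, a GTPase of membrane traffic, fell from 9.05, 9.09 and 9.07 to 8.39, 8.29 and 8.34, a difference of -0.73 ± 0.06, while with s18076 it rose to 9.66, 9.78 and 9.81. Of these 12 genes 9 had a further probe set, and for 6 (CMTM6, VAPA, FKBP14, LIN52, RAB8B and UQCC6) one was called lower than control and than each other siRNA.

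Among the 26 higher genes, FSTL1, a secreted glycoprotein, showed the widest separation. It read 11.01, 11.04 and 10.93 in the controls, 11.84, 11.76 and 11.82 with s18074, 11.38, 11.29 and 11.32 with s18075 and 10.30, 10.15 and 10.11 with s18076. It thus rose by 0.81 ± 0.06 with s18074 and by 0.34 with s18075, and changed by -0.80 with s18076. EIF5A2, a relative of the translation factor eIF5A, was at 0.59 ± 0.05 with s18074, 0.18 with s18075 and -0.46 with s18076. JCAD, a protein of endothelial junctions, rose by 0.59 ± 0.09 and SMIM14 by 0.48 ± 0.06. A further JCAD probe set differed from s18075 by 0.02 and the further SMIM14 probe set called against control by -0.19, neither called. ATF6, a sensor of unfolded protein, rose by 0.43 ± 0.05, DUSP10, a MAP kinase phosphatase, by 0.36 ± 0.08 and CREBL2 by 0.34 ± 0.05. On the ATF6 probe set brightest in the s18075 and s18076 arrays, the difference from control was 0.20 and not called (adjusted p = 0.125), and that from s18075 was -0.24. DUSP10 was not called as the mean of its probe sets (0.23, adjusted p = 0.110) or without s18074 replicate 3. FSTL1 and CREBL2 were the 2 of these 8 genes with a further probe set called higher in all 3 comparisons. PSPC1, a paraspeckle protein, was at 0.62 ± 0.08 on its brightest probe set and called lower on 2 others, at -0.56 and -0.59, so its direction is uncertain.

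Of 1012 listed genes measured, 14 (1.38%) were among the 136, against 0.688% of all genes. Beside those already named they were POLR1B at -0.22 ± 0.06, CRELD2 at -0.20 ± 0.06, WWTR1 (which is TAZ) at 0.27 ± 0.07, COL6A1 at -0.30 ± 0.07 and SNX1 at -0.26 ± 0.08. The lists were chosen with earlier results of these data known, and CERK and CMTM6 are among the 14. Most lists also hold brighter genes than the median gene. Of the 136, 24 of the 26 higher and 109 of the 110 lower were in the upper 3 level groups. The larger share among listed genes is therefore no independent result. The 110 lower genes were checked for promoter motifs because they moved together, and 89 had a promoter in the table. GGGCGG was present in 82.0% of these, against 71.4% of the 9706 genes with a promoter in the upper 3 level groups. TATAAA was present in 3.37%, against 5.17%, and CACGTG in 14.6%, against 10.6%. The 120 bases before the start are shown for CMTM6 (chr3:32502853-32502972, minus strand) and VAPA (chr18:9913896-9914015, plus strand), with the same motifs in capitals.
CMTM6: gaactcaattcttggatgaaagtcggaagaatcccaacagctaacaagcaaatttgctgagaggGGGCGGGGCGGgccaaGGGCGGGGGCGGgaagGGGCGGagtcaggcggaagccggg
VAPA: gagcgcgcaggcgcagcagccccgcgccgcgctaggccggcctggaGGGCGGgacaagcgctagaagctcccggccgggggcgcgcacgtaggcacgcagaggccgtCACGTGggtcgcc

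In 91 genes s18074 differed from both other siRNAs in 1 direction but was not called against control, 28 being higher than with the others and 63 lower. ZMAT3, a p53 target, stood at 0.27 ± 0.20 with s18074 against 1.08 with s18075 and 1.11 with s18076, and its s18074 arrays (8.28, 8.88 and 9.03) overlapped the controls (8.14, 8.73 and 8.49). Further ZMAT3 probe sets were called higher with s18074 at 0.61 and 0.35, and these differed from s18075 by -0.67 and -0.47, so ZMAT3 rose less with s18074 there. PHTF2 was at -0.12 against 0.63 and 0.64 on its brightest probe set, but 3 dimmer ones were called higher with s18074, at 0.36, 0.46 and 0.49, and were not called against either other siRNA. KLHL28, an adaptor-like Kelch protein, was at -0.16 against 0.53 and 0.60, and FA2H, fatty acid 2-hydroxylase, was at -0.29 against 0.36 and 0.70. In the other direction, ZNF704 was at -0.16 against -0.66 with each other siRNA. CYTH1, an exchange factor for ARF GTPases, was at -0.05 against -0.53 and -0.50, PUS10, a pseudouridine synthase, at -0.22 against -0.67 and -0.83, and TPRG1L at 0.24 against -0.59 and -0.24. A gene not called against control may still have changed with s18074 by less than these arrays could show.

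Other genes moved with s18074 in the direction opposite to another siRNA, each called against the same control arrays. IGF1R, the receptor of insulin-like growth factor 1, read 9.59, 9.79 and 9.73 in the controls and 9.12, 9.16 and 9.22 with s18074, a difference of -0.53 ± 0.07. It was at 0.36 with s18075 and 0.53 with s18076. A further bright IGF1R probe set was at -0.74 with s18074, -0.55 with s18075 and -0.29 with s18076, so the opposite direction, seen on the probe set used here, was not seen on that one. UHMK1, a kinase, was at 0.63 ± 0.05 with s18074, 0.67 with s18075 and -0.45 with s18076. A further called UHMK1 probe set was at 0.78, 1.19 and 0.32. VGLL3, a cofactor of TEAD factors, was at 0.45 ± 0.08 with s18074, -0.52 with s18075 and 0.28 with s18076, and lost its call with s18074 as the mean of its probe sets. In all, 85 genes were called with s18074 one way and with s18075 or s18076 the other, 42 against s18075 and 47 against s18076.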

How the data were processed

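RNA from 12 HEK293T samples was measured on Affymetrix arrays. The authors deposited linear intensity values per probe set. The submitters' processing notes name RMA and affy 1.24.2. RMA subtracts background, quantile-normalizes and summarises probes, which hides any change in the total RNA of a cell. Values ran from 4.36 to 33219, and log2 was taken without a pseudocount.

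Of 54675 probe sets, 62 are controls, 41091 name 1 gene, 1801 several and 11721 none in the platform annotation. The 19775 genes were each read from the probe set with the highest mean, and 10523 had several. A model of 4 group means was fitted to all 12 arrays with limma 3.58.1 in R 4.3.3 (8 residual degrees of freedom), with Benjamini-Hochberg adjustment within each contrast, and was tested on simulated data. Named genes were MED26, MYC, the 15 largest called changes in each direction, the most separated genes of each class described, up to 4 called members of each list, and CERK, CMTM6 and CD274, passing over LOC, open reading frame and KIAA names. The members, lists and named genes were chosen with earlier results of these data known. List counts stand beside the counts over all genes. Promoters came from RefSeq (GRCh38.p14). Same-numbered arrays correlated at 0.326 to 0.439 (replicate 1), -0.0240 to 0.248 (replicate 2) and 0.0344 to 0.169 (replicate 3), so the numbers were not taken as pairs. Alternatives covered scaling, filters, probe set choice, variance models, blocks, thresholds and left-out arrays.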

Additional observations from a re-analysis of the deposited data

Results flagged for a closer look

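Results that differed between the siRNAs by a direct limma test (Benjamini-Hochberg adjusted over all genes) were singled out, and their cause was not tested. With s18074, 26 genes were higher and 110 lower than with control and than with each other siRNA. MED26 differed between s18074 and s18075 by -0.54 (log2, adjusted p = 0.000256). CERK differed from s18075 by -1.58 (adjusted p = 9.38e-09) and from s18076 by -1.72 (adjusted p = 7.79e-09). FSTL1 was higher with s18074 than with s18075 by 0.47 and than with s18076 by 1.62. Against control it stood at 0.81 with s18074, 0.34 with s18075 and -0.80 with s18076. All 3 s18074 arrays lay above all arrays of both other siRNAs. CERK and FSTL1 were picked on these arrays as the most separated of the 110 and the 26, so that separation adds no support.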

How the results depend on the processing

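With each array left out in turn, 880 to 1391 genes were called higher with s18074 than with control and 999 to 1539 lower. MED26 ranged from -1.12 to -1.07. Genes called against control and against each other siRNA were 11 to 26 higher and 70 to 101 lower, and genes called against both other siRNAs but not against control were 55 to 109. A fit of the 6 compared arrays alone called 982 genes lower. Of the 26 higher genes' count, the alternatives gave 40 with log2(value + 32), 44 without the dimmest 40% of genes, 11 with a gene's probe sets averaged, 41 with array weights, 48 with the replicate number as a block and 46 with replicate 1 against replicates 2 and 3 as a block. That last block gave 179 for the 110 lower genes and replicates 2 and 3 alone gave 64. The 91 genes not called against control became 138 without the dimmest genes, 148 with array weights, 141 with the replicate block, 162 with the block of replicate 1 against the rest and 56 on replicates 2 and 3 alone. With the replicate block 1760 genes were called higher and 1937 lower than control, and no named call was lost. At an adjusted p under 0.01 the counts were 691 higher and 749 lower than control, then 6, 60 and 52 for the 3 classes set against the other siRNAs. With a log2 difference of at least 0.5 they were 223 and 187, then 0, 24 and 14. Averaging probe sets put MED26 at -0.35 and reversed PSPC1 to -0.0019 (adjusted p = 0.994). Of 145 named calls besides MED26, 103 held under every alternative that kept the threshold and tested the gene, 41 were lost under at least 1, and 1 reversed. The cause of these differences was not tested beyond the fewer arrays or genes an alternative used. The median over all genes stayed between -0.02 and -0.00 under every alternative. Few genes in the lowest level groups were called, and whether their dim signal limited the calls was not tested.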
